A study of Homo sapiens with 60 samples.

Results

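The genes described are TRAF1, TRAF2, TRAF3, BIRC2, BIRC3, XIAP and ICAM1, 7 of the 57665 genes in the deposited tables. They were taken by symbol, and the set was chosen from earlier results of these same libraries. Their differences between dimerizer-treated and untreated cells are therefore given as descriptions with no p-value. The lists of other pathway genes were likewise drawn up with earlier results known, so the p-values given for those genes, from the fit across all genes, are no independent support. The study asked how the RNA output of the integrated stress response depends on the strength and the duration of the signal. The cells were U2OS, an established human osteosarcoma line with the genotype label WT, and every culture, treated or not, stably expressed Dmr-PERK, the eIF2 alpha kinase domain of mouse PERK joined to a DmrB domain. AP20187, the dimerizer, pairs the fusion protein and so activates it. The treated groups received dimerizer at 0.01, 0.2 or 3 nM (the middle dose has 3 decimals in the sample labels and is rounded as in the design text), at 6 times of 1, 2, 4, 8, 16 and 24 h, with 3 libraries in each of the 18 groups. Untreated cells were sequenced as 2 sets of 3 libraries, called set 1 and set 2 here. The responses are those of a single engineered line with a mouse kinase domain, and the labels name no untreated culture handled beside each time.

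The 60 libraries held 5598803 to 28436445 counts each. Untreated set 1 and the 0.01 and 0.2 nM groups were shallow (39 libraries, 5598803 to 10367667 counts), while untreated set 2 and the 3 nM groups were deep (21 libraries, 20713981 to 28436445 counts), so that dose and depth cannot be told apart between 3 nM and the lower doses. The labels did not say which untreated set belongs to which dose, nor whether the 3 libraries of a group came from separate cultures, so that errors and p-values measure only the spread between these samples. Of the markers that define other cell types, all 6 blood genes and all 5 endothelial genes had a median under 1 TPM, with summed levels of 0 to 2.0 TPM and 0.337 to 3.77 TPM per library. Of the 6 mesenchymal and bone genes only COL1A2 was under 1 TPM, and of the 5 epithelial genes only ESRP1. The summed mesenchymal and bone level was 3188 to 3614 TPM after 4 h and 1576 to 1604 TPM after 24 h at 3 nM, against 4843 to 5329 TPM in untreated cells. The summed epithelial level was 985 to 1098 TPM after 4 h and 657 to 664 TPM after 24 h at 3 nM, against 749 to 981 TPM in untreated cells. The part of these differences in the values below was not tested. In bulk RNA, fewer cells of a kind and less RNA per cell cannot be told apart.

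TRAF proteins are adaptors that couple receptors of the TNF family to kinases and ubiquitin ligases. TRAF2 brings the ligases BIRC2 (cIAP1) and BIRC3 (cIAP2) to the receptor, where ubiquitin chains on RIPK1 start the canonical NF-kB pathway and hold back cell death. In unstimulated cells TRAF3 links the same ligases to the kinase NIK (MAP3K14), which is then degraded, and this keeps the non-canonical NF-kB pathway quiet. TRAF1 lacks the ligase domain of the other family members and is a known NF-kB target, as are BIRC3 and ICAM1. XIAP binds and inhibits caspases directly, and ICAM1 is a surface adhesion protein that leukocyte integrins bind.

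Positions are those of GENCODE release 29 on GRCh38. TRAF1 lies at chr9:120902393-120929173 on the minus strand. The other 6 genes lie on the plus strand: TRAF2 at chr9:136881912-136926607, TRAF3 at chr14:102777476-102911500, BIRC2 at chr11:102347211-102378670, BIRC3 at chr11:102317450-102339403, XIAP at chrX:123859724-123913979 and ICAM1 at chr19:10270835-10286615. BIRC3 and BIRC2 are neighbours, 7807 bases apart. Promoter windows, the 250 bases before each RefSeq transcription start on GRCh38.p14, were searched on both strands for an NF-kB site (the 10-letter kappa B consensus, by name, and its 9-letter core GGAANTTCC), an AP-1 site (TGANTCA) and an ATF4 composite site (TGATGNAA), the last because ATF4 is the transcription factor that the integrated stress response is known to produce. Of the 35114 windows in the reference, 9.96% held the kappa B consensus, 0.826% the core, 6.57% the AP-1 letters and 3.14% the ATF4 letters. The windows that held a match are printed 5′ to 3′ on the gene's own strand with the matched letters in capitals, together with the most upstream of the 3 windows of TRAF1, the member with the widest range, none of which held a match.
BIRC3, chr11:102317234-102317483 (+): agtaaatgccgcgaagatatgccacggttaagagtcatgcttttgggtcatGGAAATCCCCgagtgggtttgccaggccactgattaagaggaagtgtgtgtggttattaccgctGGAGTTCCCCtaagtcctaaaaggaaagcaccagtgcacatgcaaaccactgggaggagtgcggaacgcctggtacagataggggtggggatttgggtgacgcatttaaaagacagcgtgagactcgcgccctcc
TRAF3, chr14:102777199-102777448 (+): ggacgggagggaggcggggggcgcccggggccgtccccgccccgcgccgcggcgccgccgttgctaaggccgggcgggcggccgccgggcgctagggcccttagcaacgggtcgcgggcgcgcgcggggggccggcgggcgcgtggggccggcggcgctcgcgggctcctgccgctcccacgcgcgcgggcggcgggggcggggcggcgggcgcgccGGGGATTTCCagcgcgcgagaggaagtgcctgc
ICAM1, chr19:10270870-10271119 (+): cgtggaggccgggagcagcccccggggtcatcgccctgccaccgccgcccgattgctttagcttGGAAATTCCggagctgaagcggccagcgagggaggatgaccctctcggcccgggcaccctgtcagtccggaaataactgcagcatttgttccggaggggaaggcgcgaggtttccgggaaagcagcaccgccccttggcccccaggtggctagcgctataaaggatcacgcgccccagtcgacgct
TRAF1, chr9:120929172-120929421 (-): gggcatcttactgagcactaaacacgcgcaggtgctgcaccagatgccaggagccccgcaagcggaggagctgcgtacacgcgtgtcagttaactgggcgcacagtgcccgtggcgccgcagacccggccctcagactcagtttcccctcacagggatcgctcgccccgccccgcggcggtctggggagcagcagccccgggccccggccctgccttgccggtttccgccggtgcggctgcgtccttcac
BIRC3 had the kappa B consensus at 2 places, from 199 to 190 and from 135 to 126 bases before the start. TRAF3 had it from 33 to 24 bases before the start, and ICAM1 had the 9-letter core from 186 to 178 bases before the start. No kappa B letters were found in these windows for TRAF1, TRAF2, BIRC2 or XIAP, and no AP-1 or ATF4 letters for any of the 7. A match is a run of letters, not a shown binding site, and other windows were not searched.

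TRAF1 had the widest range of the 7 genes. At 3 nM its level was 6.21, 4.71 and 3.67 TPM after 1 h, 37.8, 31.4 and 27.0 TPM after 2 h, 74.7, 74.0 and 71.2 TPM after 4 h, 140.3, 146.5 and 129.8 TPM after 8 h, 27.5, 26.4 and 28.2 TPM after 16 h and 51.6, 48.2 and 47.9 TPM after 24 h, against 2.56, 1.91 and 1.58 TPM in untreated set 1 and 4.74, 3.23 and 2.97 TPM in untreated set 2 (TPM is transcript abundance per length, scaled to the same total in every library). From 2 h on, all 3 nM libraries lay above all 6 untreated libraries, the 8 h libraries were the highest of all 60, and the level at 24 h was above that at 16 h with no overlap. In the fit to the counts the log2 fold change against the mean of both untreated sets was 4.73 (SE 0.098) after 4 h, 5.59 (SE 0.093) after 8 h and 4.19 (SE 0.102) after 24 h, the middle value being 48.3-fold.

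At the lower doses TRAF1 was high only for part of the day. At 0.2 nM it had 33.8, 35.7 and 36.1 TPM after 2 h, 60.7, 57.0 and 62.5 TPM after 4 h, 46.4, 45.9 and 46.4 TPM after 8 h, 4.52, 5.64 and 5.51 TPM after 16 h and 5.55, 4.84 and 5.41 TPM after 24 h. At 0.01 nM it had 17.2, 21.2 and 22.0 TPM after 2 h, 19.2, 18.9 and 18.8 TPM after 4 h, 6.39, 5.77 and 5.67 TPM after 8 h, 1.21, 1.21 and 1.56 TPM after 16 h and 1.83, 1.51 and 0.918 TPM after 24 h. The 0.2 nM libraries were above every untreated library at 24 h but not at 16 h, whereas the 0.01 nM libraries were below every untreated library at 16 h and overlapped them at 24 h. The log2 fold change at 0.01 nM and 16 h was -1.11 (SE 0.299) against both sets, -0.72 (SE 0.371) against set 1 and -1.49 (SE 0.278) against set 2, so its size depended on the untreated set. Against set 1 alone the fit did not call it (adjusted p not under 0.05).

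BIRC3, the inducible cIAP2 ligase, followed a similar course. At 3 nM it had 8.20, 7.94 and 4.88 TPM after 1 h, 21.9, 18.1 and 17.3 TPM after 2 h, 52.7, 53.7 and 54.0 TPM after 4 h, 67.2, 64.1 and 61.7 TPM after 8 h, 10.6, 11.7 and 10.96 TPM after 16 h and 18.6, 17.4 and 18.5 TPM after 24 h, against 3.31, 2.32 and 2.61 TPM in untreated set 1 and 7.59, 7.21 and 6.18 TPM in untreated set 2. As for TRAF1, the libraries of 2 h and later were all above the untreated ones, 8 h was highest and 24 h stood above 16 h. Its log2 fold changes against both sets were 3.59 (SE 0.076) after 4 h, 3.84 (SE 0.075) after 8 h and 2.03 (SE 0.088) after 24 h.

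At the lower doses the late levels of BIRC3 were at or below those of untreated cells. At 0.2 nM it had 24.0, 24.5 and 23.0 TPM after 2 h, 47.4, 46.7 and 49.7 TPM after 4 h, 16.7, 14.8 and 16.8 TPM after 8 h, 2.57, 2.11 and 2.33 TPM after 16 h and 3.10, 2.50 and 3.20 TPM after 24 h. At 0.01 nM it had 20.4, 23.6 and 20.4 TPM after 2 h, 27.0, 30.5 and 27.8 TPM after 4 h, 5.00, 6.48 and 5.14 TPM after 8 h, 1.24, 1.22 and 1.06 TPM after 16 h and 2.23, 2.96 and 1.90 TPM after 24 h. At 0.01 nM and 16 h all 3 libraries were below all 6 untreated libraries, while the late 0.2 nM libraries were below those of set 2 and overlapped those of set 1. The log2 fold change at 0.01 nM and 16 h was -1.24 (SE 0.267) against set 1 and -2.27 (SE 0.198) against set 2, whereas at 0.2 nM and 24 h it was -0.26 (SE 0.213) against set 1 and -1.28 (SE 0.150) against set 2.

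**Figure D1:**
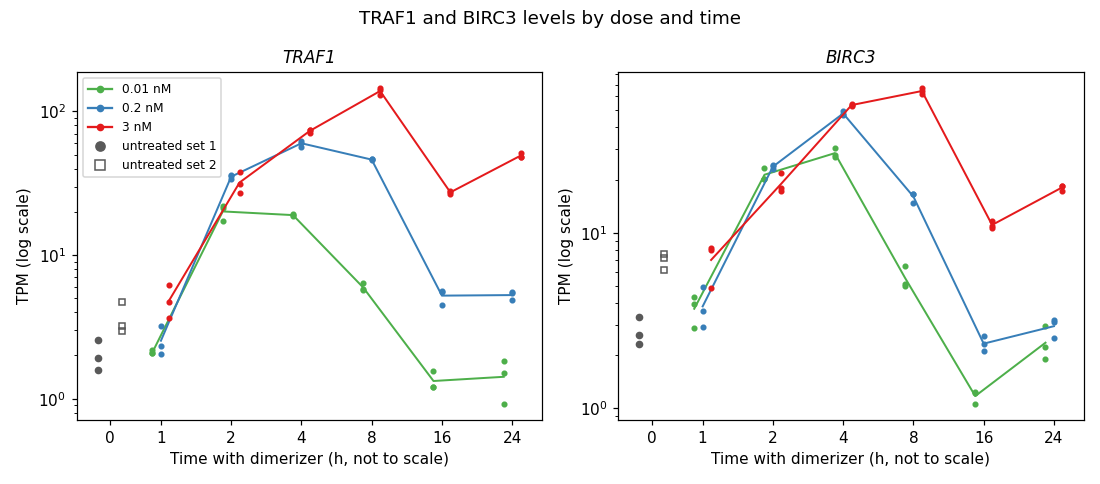
TPM of TRAF1 and BIRC3 (log axis) against hours of dimerizer, with 1 point per library, 1 line per dose through the group means and both untreated sets drawn at 0 h. At 3 nM both genes peak at 8 h (TRAF1 139 TPM, BIRC3 64.3 TPM on average) and are higher at 24 h than at 16 h, while at 0.01 nM both end at or below the untreated points.

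TRAF2, the adaptor that carries the cIAP ligases, varied less. It had 36.0, 39.8 and 39.8 TPM after 4 h at 3 nM, 54.3, 54.8 and 56.9 TPM after 8 h and 45.0, 45.2 and 42.1 TPM after 24 h, against 16.6, 17.1 and 15.9 TPM in untreated set 1 and 25.5, 19.6 and 19.7 TPM in untreated set 2. None of these 3 nM groups overlapped the untreated libraries. Unlike BIRC3 at either lower dose and TRAF1 at 0.01 nM, TRAF2 was also above all untreated libraries at 24 h at the lower doses, with 34.6, 30.2 and 28.5 TPM at 0.2 nM and 28.6, 29.6 and 26.9 TPM at 0.01 nM. Its log2 fold changes at 24 h were 0.39 at 0.01 nM, 0.54 at 0.2 nM and 1.19 at 3 nM.

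TRAF3, the brake on NIK, had 22.4, 26.8 and 22.1 TPM after 4 h at 3 nM, 24.9, 24.8 and 25.6 TPM after 8 h and 24.6, 21.9 and 20.5 TPM after 24 h, against 4.75, 6.17 and 5.24 TPM in untreated set 1 and 7.28, 7.46 and 6.41 TPM in untreated set 2. All of these treated libraries lay above all untreated libraries, and the 4 h range overlapped those of 8 and 24 h. The 0.01 nM libraries had 16.3, 16.4 and 17.2 TPM after 4 h but 7.15, 7.21 and 6.97 TPM after 24 h, when they overlapped the untreated range. The log2 fold changes at 3 nM were 1.93 (SE 0.045) after 4 h, 1.88 (SE 0.045) after 8 h and 1.56 (SE 0.047) after 24 h, against 0.10 at 0.01 nM after 24 h.

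BIRC2, the constitutive cIAP1 ligase, was the most abundant member in untreated cells. At 3 nM it had 53.2, 62.3 and 65.9 TPM after 4 h, 77.9, 81.8 and 70.6 TPM after 8 h and 66.6, 64.9 and 64.3 TPM after 24 h, against 31.5, 29.7 and 24.4 TPM in untreated set 1 and 35.4, 36.4 and 30.7 TPM in untreated set 2. These groups stood apart from the untreated libraries. Although it neighbours BIRC3, its log2 fold change at 3 nM was far smaller, 1.31 (SE 0.038) after 8 h. At 0.01 nM and 16 h it had 25.9, 25.3 and 30.8 TPM, which overlapped the untreated range, with a log2 fold change of -0.45 (SE 0.056).

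XIAP, the caspase inhibitor, varied least. It had 14.3, 13.1 and 15.2 TPM after 4 h at 3 nM and 22.6, 21.6 and 22.6 TPM after 24 h, against 10.7, 12.4 and 9.83 TPM in untreated set 1 and 11.7, 12.1 and 11.7 TPM in untreated set 2. In TPM, all of its 5 groups that cleared the untreated range were at 3 nM (1, 4, 8, 16 and 24 h), and the other 13 groups overlapped it. On counts against set 2 alone, its log2 fold change at 3 nM was only 0.097 after 1 h and 0.085 after 8 h. Neither was called by the fit (adjusted p under 0.05). The log2 fold change on counts at 3 nM and 24 h was 0.53 (SE 0.052), and the TPM difference was wider. The transcript length implied by the ratio of counts to TPM, which restates this gap, was shorter by 0.37 on the log2 scale than the untreated mean. On that scale the untreated sets themselves stood at -0.189 (SD 0.243) in set 1 and 0.189 (SD 0.104) in set 2. At the lower doses its TPM scattered more, for example 22.6, 16.5 and 10.8 TPM at 0.2 nM and 24 h, where the counts were 328, 289 and 362.

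**Figure D2:**
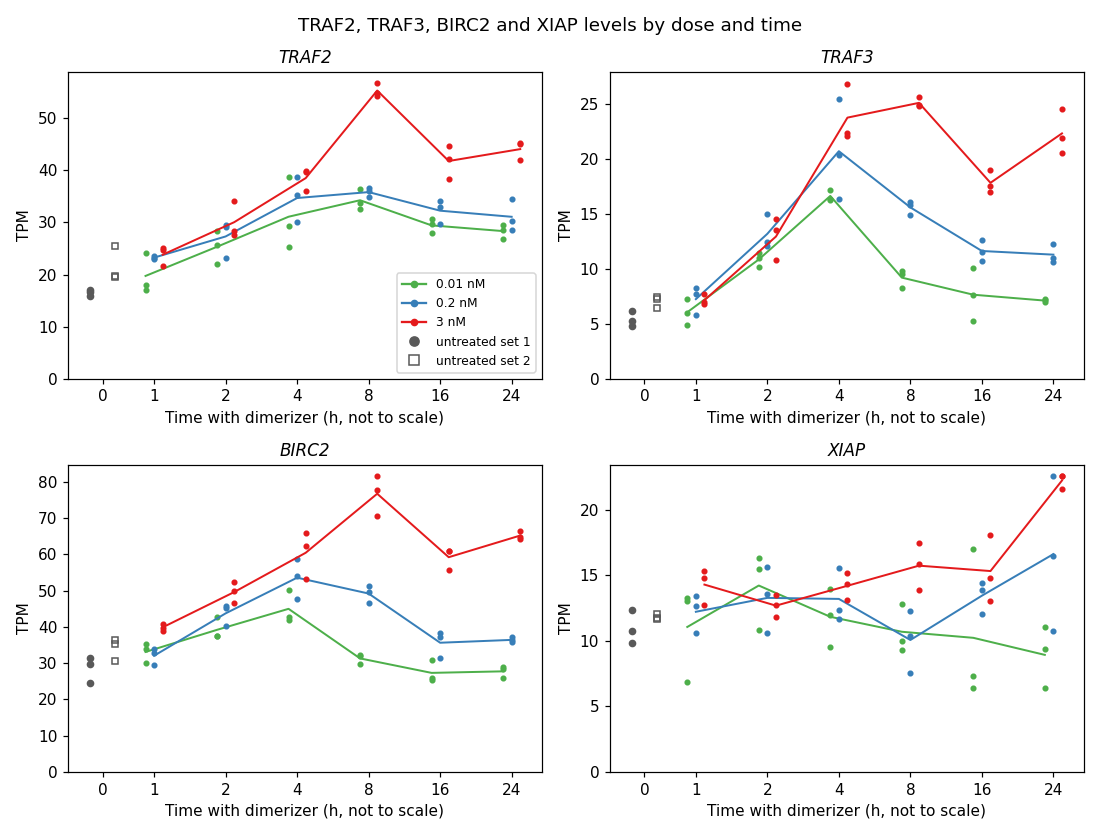
TPM of TRAF2, TRAF3, BIRC2 and XIAP against hours of dimerizer, with 1 point per library, 1 line per dose through the group means and the untreated sets at 0 h. TRAF2, TRAF3 and BIRC2 are highest at 3 nM and 8 h (55.3, 25.1 and 76.8 TPM on average), and XIAP is highest at 3 nM and 24 h (22.3 TPM).

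ICAM1 was scarce in untreated U2OS, so its values rest on few counts, and it was high only at early times. At 3 nM it had 1.29, 0.891 and 0.635 TPM after 2 h, 5.29, 3.90 and 4.66 TPM after 4 h, 4.06, 4.58 and 3.66 TPM after 8 h, 0.193, 0.361 and 0.221 TPM after 16 h and 0.362, 0.488 and 0.264 TPM after 24 h, against 0.419, 0.459 and 0.451 TPM in untreated set 1 and 0.327, 0.488 and 0.494 TPM in untreated set 2. The libraries of 2, 4 and 8 h were all above the untreated ones, and those of 16 and 24 h overlapped them. With counts pooled, 716 after 4 h at 3 nM against 82 in untreated cells gave a ratio of 11.6 per library total (95% exact interval 9.26 to 14.8, counting error only).

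ICAM1 at 0.2 nM was also high at 4 h, and its mean at 24 h was the lowest of the 20 groups. It had 2.52, 4.05 and 4.89 TPM after 4 h (43, 30 and 45 counts) but 0, 0.0995 and 0.0479 TPM after 24 h (0, 2 and 1 counts). All 3 libraries at 24 h lay below all 6 untreated libraries, although set 1, the untreated set of like depth, itself had only 5, 4 and 4 counts. The pooled ratio at 24 h was 0.130 against both sets (95% exact interval 0.0262 to 0.392) and 0.196 against set 1 (0.0358 to 0.712), counting error only. Low values were not particular to this group. After 16 h the ratio against both sets was 0.479 (0.300 to 0.744) at 3 nM, 0.214 (0.0571 to 0.570) at 0.2 nM and 0.452 (0.189 to 0.934) at 0.01 nM. Against set 1 alone these 16 h intervals reached up to 1.52, 1.05 and 1.78. The fitted log2 fold change of -2.73 (SE 0.743) was -3.65 without 0.2 nM 24 h replicate 2 and is not used for size.

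**Figure D3:**
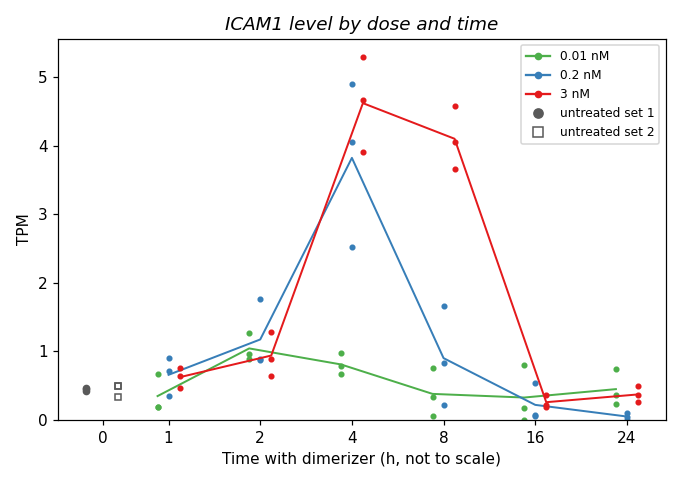
TPM of ICAM1 in each library against hours of dimerizer, with lines through the group means and the untreated sets at 0 h. The 3 nM points reach 3.66 to 5.29 TPM at 4 and 8 h and overlap the untreated range of 0.327 to 0.494 TPM again at 24 h (0.264 to 0.488 TPM), while the 0.2 nM points at 24 h lie at 0 to 0.0995 TPM.

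Ordered by level over the 20 groups, TRAF1, TRAF2, TRAF3, BIRC2 and BIRC3 shared 3 nM at 8 h as their highest group, ICAM1 had 3 nM at 4 h and XIAP 3 nM at 24 h. The ratio of the highest to the lowest group mean was 104 for TRAF1, 94.0 for ICAM1 and 54.8 for BIRC3, but 4.66 for TRAF3, 3.35 for TRAF2, 2.81 for BIRC2 and 2.49 for XIAP. Of the 19 pairs of neighbours in that order, 9 did not overlap for BIRC3, 8 for TRAF1, 2 each for TRAF2, TRAF3 and BIRC2, 1 for ICAM1 and 0 for XIAP. Even for BIRC3 and TRAF1, 10 and 11 of the 19 pairs overlapped. The share of such pairs over all genes was not computed, so nothing is read from these counts. The number of the 18 treated groups with all 3 libraries above all 6 untreated ones was 13 for TRAF3, 12 for TRAF1, 12 for TRAF2, 11 for BIRC2, 10 for BIRC3, 7 for ICAM1 and 5 for XIAP. Groups wholly below were 1 for TRAF1, 1 for BIRC3 and 1 for ICAM1. Of 26799 genes compared, 8.43% (0.01 nM, 1 h) to 24.4% (3 nM, 24 h) lay above all untreated libraries, depending on the group. The share below them all was 0.772% (0.2 nM, 1 h) to 16.6% (3 nM, 24 h).

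**Figure D4:**
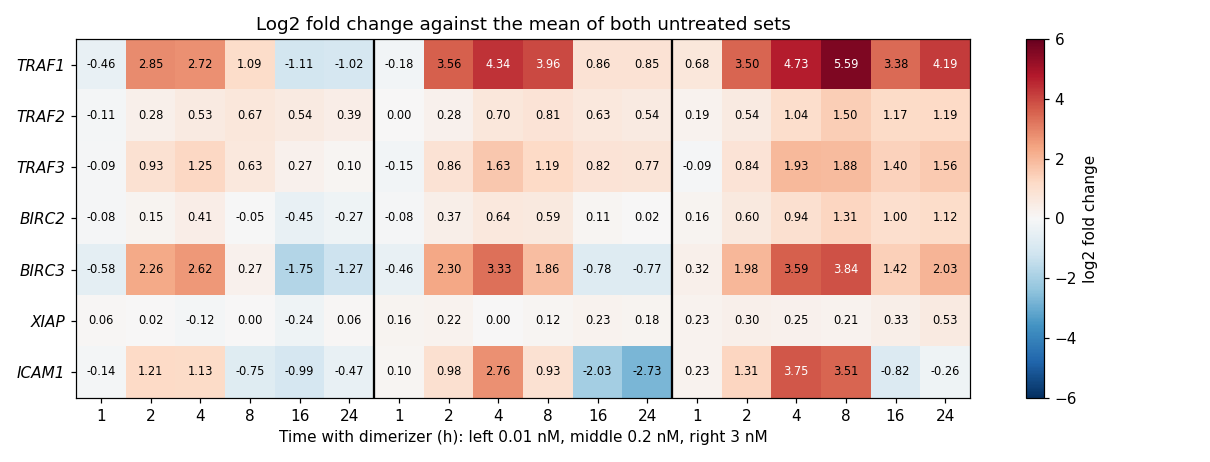
Log2 fold change of each of the 7 genes (rows) in each dose and time (columns) against the mean of both untreated sets. TRAF1 and BIRC3 are the strongest rows at 2 and 4 h at 0.01 and 0.2 nM (at 3 nM and 4 h ICAM1 at 3.75 lies between them), stay positive to 24 h at 3 nM and are negative at 0.01 nM from 16 h, and XIAP stays within -0.24 and 0.53 throughout.

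All 7 genes passed the filter on low counts. ICAM1 passed through the groups in which it is high, since it exceeded the minimum in 25 of 60 libraries, whereas the other 6 exceeded it in all 60. Against untreated cells at 3 nM, the fit called 5 members after 1 h, 7 after 2 h, 7 after 4 h, 7 after 8 h, 6 after 16 h and 6 after 24 h, all of them higher, beside 43.7%, 50.5%, 66.8%, 72.5%, 76.1% and 77.1% of all 18040 tested genes called in either direction (adjusted p under 0.05). At 0.2 nM the members called higher and lower were 1 and 1, 7 and 0, 6 and 0, 6 and 0, 4 and 2, and 4 and 2 in the same order of times, beside 35.2%, 44.9%, 59.3%, 63.7%, 66.4% and 65.5% of all tested genes. At 0.01 nM they were 0 and 1, 6 and 0, 6 and 0, 3 and 0, 2 and 4, and 1 and 3, beside 28.1%, 43.5%, 52%, 53.8%, 52.7% and 43.2%. Because the members were chosen with these contrasts known and 28.1% to 77.1% of all genes pass this test, nothing is read from these counts. The median log2 fold change of the 7 at 3 nM was 1.93 after 4 h and 1.19 after 24 h, against 0.02 and 0.05 over all tested genes. By ranges alone, 7 of 7 members lay above all untreated libraries at 3 nM and 4 h, as did 16.1% of the 26799 genes compared. The members were chosen with these values known, so nothing is read from the medians or the ranges either.

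The doses were also set against each other at each time. Between 0.2 and 0.01 nM the fit called 0, 2, 5, 5, 5 and 3 members higher at 1, 2, 4, 8, 16 and 24 h and 1 lower at 24 h (ICAM1), beside 0.759%, 9.89%, 24%, 36.7%, 44.9% and 51.5% of all tested genes. Between 3 and 0.2 nM it called 4, 2, 7, 6, 5 and 7 higher and 1 lower at 2 h, beside 27.3%, 36.1%, 36.8%, 38.2%, 45.7% and 56.1%. For TRAF1 the log2 difference of 3 over 0.2 nM was 0.38 after 4 h, 1.64 after 8 h and 3.34 after 24 h, and for BIRC3 it was 0.26, 1.98 and 2.80. The 7 differences at 4 h were 0.25 to 0.99, and none was called on TPM in place of counts. Because 3 nM was sequenced more deeply, dose and depth cannot be told apart in this pair, whereas 0.2 and 0.01 nM were of like depth.

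Between 24 and 4 h the members parted by dose. At 3 nM TRAF1 changed by -0.53, TRAF2 by 0.15, TRAF3 by -0.38, BIRC2 by 0.18, BIRC3 by -1.56, XIAP by 0.28 and ICAM1 by -4.01 on the log2 scale. At 0.2 nM TRAF1 changed by -3.49 and BIRC3 by -4.09, and at 0.01 nM by -3.75 and -3.88. Thus the 24 h level of TRAF1 was nearer to its 4 h level at 3 nM than at the lower doses, although its 16 h level at 3 nM was lower than either. ICAM1 had 3 counts after 24 h and 118 after 4 h at 0.2 nM, and 14 after 24 h and 35 after 4 h at 0.01 nM. At 0.01 nM its TPM ranges at these times overlapped, and its log2 change of -1.60 was called on counts but in none of the 3 limma fits on TPM. The fit called 7 members (3 higher, 4 lower) at 3 nM, 6 lower at 0.2 nM and 5 lower at 0.01 nM, beside 67.9%, 51.8% and 45.2% of all tested genes.

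No treated library enters the contrast between the untreated sets, and there 3 members differed. The same untreated libraries were part of the results from which the genes were chosen, so the p-values that follow are no independent support. TRAF1 was higher in set 2 than in set 1 by 0.77 on the log2 scale (SE 0.242, adjusted p = 0.0121 by edgeR's quasi-likelihood test), BIRC3 by 1.03 (SE 0.158, adjusted p = 7.3e-07) and XIAP by 0.26 (SE 0.073, adjusted p = 0.00525). In TPM, all 3 set 2 libraries exceeded all 3 set 1 libraries for TRAF1 and BIRC3, but not for XIAP. On counts scaled to the library total, XIAP averaged 25.5 CPM (SD 1.37) in set 1 and 33.2 CPM (SD 2.08) in set 2. On that scale its sets did not overlap. Leaving out each library in turn, the TRAF1 difference was 0.52 to 0.95, and its call was lost without set 1 replicate 2, set 1 replicate 3 or set 2 replicate 1. The XIAP call was lost without set 1 replicate 2 or set 2 replicate 3. TRAF2 at -0.02, TRAF3 at 0.11, BIRC2 at 0.03 and ICAM1 at 0.62 were not called. Of all tested genes, 28.9% differed between the sets, so a share of 3 in 7 is near the background. On log2(TPM + 1) with limma, TRAF2 (0.36) and BIRC2 (0.26) were called higher in set 2 instead, and XIAP (0.10) was not called.

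The late values of the members that differ between the untreated sets depend on the set used. At 3 nM and 24 h the log2 fold change of TRAF1 was 4.58 against set 1 and 3.81 against set 2, that of BIRC3 2.55 and 1.52, and that of XIAP 0.66 and 0.40. These stayed well above 0 against either set. At 0.01 nM and 24 h TRAF1 stood at -0.64 (SE 0.349) against set 1 and -1.41 (SE 0.255) against set 2, and at 3 nM and 1 h BIRC3 stood at 0.83 against set 1 and -0.20 against set 2.

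**Figure D5:**
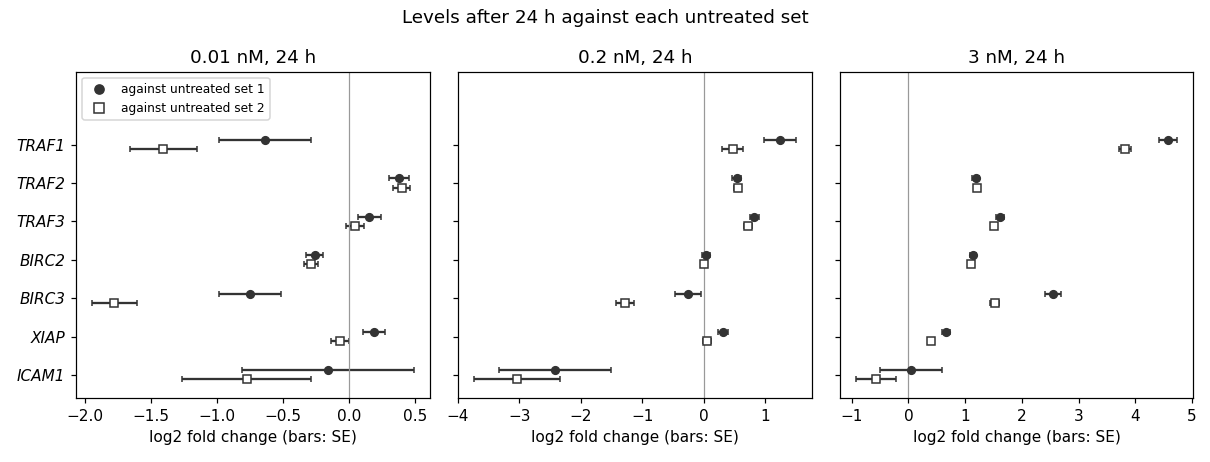
Log2 fold change of the 7 genes after 24 h at each dose against untreated set 1 (filled circles) and set 2 (open squares), with bars of 1 SE. The gap within a pair is the difference between the untreated sets, so for each gene it is the same at every dose by construction. It is widest for BIRC3, TRAF1 and ICAM1 (the last from few counts) and small for TRAF2, TRAF3 and BIRC2.

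Other genes of the same machinery were taken as 7 lists with 81 genes, of which 65 were tested. At 3 nM, 42 of the 65 rose and 9 fell after 4 h, and 40 rose and 15 fell after 24 h, with medians of 0.29 and 0.34 on the log2 scale. Of all tested genes 34.9% rose and 31.9% fell after 4 h, and 41.1% rose and 36% fell after 24 h. At 0.2 nM, 35 rose and 9 fell after 4 h and 26 rose and 22 fell after 24 h, and at 0.01 nM 25 rose and 13 fell after 4 h, against 13 up and 24 down after 24 h. Of all 18040 tested genes, 5433 rose and 5267 fell at 0.2 nM after 4 h and 6191 rose and 5623 fell after 24 h, while at 0.01 nM 4676 rose and 4710 fell after 4 h and 3790 rose and 4002 fell after 24 h.

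The NF-kB subunits and their feedback inhibitors had the highest median of the 7 lists at 3 nM after 4 h, though not at the lower doses. All 12 genes of the list rose at 3 nM and 4 h (median 1.16), and after 24 h 9 had risen and 3 had fallen (median 0.69). RELB, a subunit of the non-canonical pathway, averaged 112.2 ± 5.9 TPM after 4 h and 59.0 ± 1.7 TPM after 24 h at 3 nM (SD, n = 3 each), against 12.3 ± 1.5 TPM in untreated set 1 and 19.3 ± 0.46 TPM in set 2. Its log2 fold change after 24 h was 2.03 (SE 0.053, edgeR adjusted p = 1.1e-39). NFKB1, the precursor of the p50 subunit, stood at 1.46 after 24 h (adjusted p = 1.6e-40), and NFKBIE, an inhibitor of the subunits, at 2.03 after 4 h (SE 0.046, adjusted p = 3.9e-42).

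The inhibitors of this list did not move together after 24 h. NFKBIB rose by 1.71 (edgeR adjusted p = 7.0e-35), while NFKBIA, the inhibitor that NF-kB itself induces, fell by 1.11 (adjusted p = 1.3e-30) and TNFAIP3 (A20), a ubiquitin editor that ends the signal, fell by 1.28 (adjusted p = 2.0e-22). TNFAIP3 averaged 52.8 ± 4.0 TPM after 4 h and 12.9 ± 0.8 TPM after 24 h, against 23.8 ± 3.2 TPM in untreated set 1 and 28.9 ± 1.3 TPM in set 2 (SD, n = 3 each). NFKBIA averaged 184.5 ± 5.7 TPM after 4 h and 73.3 ± 4.6 TPM after 24 h, against 150.1 ± 14 TPM in set 1 and 156.4 ± 5.8 TPM in set 2. BCL3 also fell after 24 h, by 0.50 (adjusted p = 4.7e-09; singled out after its values were seen). It was itself lower in untreated set 2 than in set 1, by more than this fall, so the size of the fall depends on the set used. At 0.01 nM, 5 of the 12 rose and 2 fell after 4 h, and 1 rose and 9 fell after 24 h. At 0.2 nM, 9 rose and 2 fell after 4 h, while 4 moved each way after 24 h.

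Of the 19 genes of the TNF receptor signalling complex, 13 rose and 3 fell after 4 h at 3 nM (median 0.22), and 13 rose and 4 fell after 24 h (median 0.34). CYLD, a deubiquitinase that limits the signal, rose by 1.27 after 4 h (edgeR adjusted p = 9.4e-35) and 1.14 after 24 h (adjusted p = 5.3e-33). MAP3K14 (NIK), the kinase that TRAF3 holds down, rose by 1.26 after 4 h (adjusted p = 3.4e-32). It averaged 35.3 ± 1.6 TPM there and 16.5 ± 0.45 TPM after 24 h, against 10.9 ± 1.6 TPM in untreated set 1 and 19.9 ± 0.65 TPM in set 2 (SD, n = 3 each), so that its 24 h level lay between the sets. CFLAR (c-FLIP), which blocks caspase 8, rose by 0.54 after 4 h and fell by 0.20 after 24 h, with adjusted p-values of 7.7e-19 and 1.5e-05, and was singled out after its values were seen.

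Among receptors that bind TRAF proteins, 11 of 19 were tested, 7 rose and 0 fell after 4 h at 3 nM (median 0.34), and 6 rose and 1 fell after 24 h (median 0.26). TNFRSF9 (4-1BB), a costimulatory receptor known for recruiting TRAF1 and TRAF2, rose by 3.97 after 4 h (edgeR adjusted p = 4.8e-48) and 2.70 after 24 h (adjusted p = 1.4e-37). It averaged 34.9 ± 3.4 and 14.4 ± 0.78 TPM at those times, against 1.22 ± 0.33 TPM in untreated set 1 and 3.01 ± 0.24 TPM in set 2 (SD, n = 3 each). The death receptor TNFRSF21 (DR6) rose by 1.51 after 4 h (adjusted p = 4.8e-37), and EDA2R, a receptor for ectodysplasin A2, by 1.24 after 24 h (adjusted p = 2.3e-33). NGFR, the p75 neurotrophin receptor, fell by 2.05 after 24 h (adjusted p = 8.9e-16), with 0.50 ± 0.079 TPM against 2.01 ± 0.28 TPM in set 1 and 2.10 ± 0.082 TPM in set 2.

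Of 9 tested genes among other TRAF proteins and partners, 5 rose and 2 fell after 4 h (median 0.22) and 5 rose and 3 fell after 24 h (median 0.15), and none changed by as much as 2-fold. TRAF4 stood at 0.72 after 4 h and -0.10 after 24 h. Of 4 tested IAP genes 2 rose (BIRC6 and NAIP) and 2 fell (BIRC5 and BIRC7) at both times. NAIP was also higher in untreated set 2 than in set 1, so the size of its rise depends on the set used. BIRC7 (livin), an IAP known from melanoma, had 1 count in the 3 libraries given 3 nM for 24 h, against 303 in the 6 untreated libraries. That is a ratio of 0.00439 per library total, or 228-fold lower with a 95% exact interval of 40.6 to 9030 (counting error only), and it had 141 counts after 4 h.

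Among the 7 IAP antagonists and caspases, 2 rose and 1 fell after 4 h at 3 nM and 3 rose and 2 fell after 24 h. DIABLO (Smac), which frees caspases from XIAP, rose by 0.63 and 0.58 at those times (edgeR adjusted p = 2.5e-17 and 3.0e-16; singled out after its values were seen), and SEPTIN4, listed under its older symbol and known in a short isoform (ARTS) as an XIAP antagonist, fell by 1.79 after 24 h (adjusted p = 1.0e-07). Of the 9 adhesion genes related to ICAM1 only 3 passed the filter, of which 1 rose and 1 fell after 4 h and 2 rose after 24 h, counts that moved with the test used. ITGAM, a chain of a leukocyte integrin that binds ICAM1, had 161 counts after 4 h and 60 after 24 h at 3 nM, against 18 in all untreated libraries. ICAM3, a family member of leukocytes, fell by 1.46 after 4 h (adjusted p = 7.4e-06), and ITGB2, the partner chain of ITGAM, rose by 1.11 after 24 h (adjusted p = 0.00582), a call lost without 3 nM 24 h replicate 3 (adjusted p = 0.0742).

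Likeness of pattern was measured as Pearson's r of log2(mean TPM + 1) over the 20 group means, among 19298 genes, as a description, since the groups share libraries and control. The genes most like TRAF1 were RELB (r = 0.971), PITPNB (0.968) and PICALM (0.961), and those most like BIRC3 were TRIM47 (0.979), MICALCL (0.965) and CYP4F11 (0.962). For TRAF2 they were SRP68 (0.963), GUSBP5 (0.958) and C10orf2 (0.957), for TRAF3 DIEXF (0.975), ZMPSTE24 (0.970) and PTX3 (0.969), and for BIRC2 TOP1 (0.968), CSGALNACT2 (0.965) and NSRP1 (0.963). XIAP reached only 0.871 with ZC3H12C, 0.869 with ASAH2B and 0.864 with B3GNT5, and ICAM1 0.914 with SHB, 0.896 with IL4I1 and 0.893 with OLR1. Within the set, TRAF1 was most like BIRC2 (0.941), BIRC3 (0.934) and TRAF3 (0.931), TRAF2 and BIRC3 stood at 0.558, and XIAP and ICAM1 at 0.141.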

How the data were processed

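RNA of 60 U2OS libraries was measured by strand-specific sequencing, per the labels. For every gene the authors deposited estimated counts and, in a second table, TPM. The submitters' processing notes name Salmon 0.9.1, FastQC 0.11.5 and GRCh38 without saying which step each served, and their annotation is not stated in these sources. Rounding to whole numbers came first, since only 54.2% of the nonzero estimated counts were whole (tolerance 1e-06). Estimation divides reads among transcripts, so a TPM also moves with the transcript length assumed.

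The 7 genes and the pathway lists were chosen with earlier results of these data known. Counts were fitted with edgeR 4.0.16 in R 4.3.3 (TMM, filterByExpr, 18040 of 57665 genes, quasi-likelihood F test) over all 60 libraries with 20 group means, which left 40 residual degrees of freedom. Untreated means the mean of both set means. Each of 34 contrasts was adjusted by Benjamini-Hochberg over all tested genes and called at an adjusted p under 0.05. The SE is the log2 fold change over the square root of F and is approximate. All 7 genes are named, and of each list the 3 largest changes of at least 2-fold in each direction at 3 nM after 4 and after 24 h, plus list genes chosen after their values were seen (TRAF4, CFLAR, BCL3, BIRC5, BIRC6, NAIP, DIABLO). Alternatives were other size factors, DESeq2 1.42.0, no filter, limma 3.58.1 on log2(TPM + 1) or log2(TPM + 0.1), each untreated set alone, only the groups compared, the replicate number as a block, and leaving out each library. A count of 0 allows up to 3 counts, 0.536 CPM at the lowest shallow depth and 0.145 CPM at the lowest deep depth; reads carry no molecular identifiers, so intervals cover counting error only. In 60 replicate pairs the chi-square over its degrees of freedom was 1.375 to 23.03, so each library counted as 1 sample. Identifiers matched GENCODE 29 for 57068 of 57665 genes, and promoters came from RefSeq.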

Additional observations from a re-analysis of the deposited data

Results flagged for a closer look

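TRAF1, BIRC3 and ICAM1 each lay on opposite sides of the untreated range at different doses or times of the same treatment. Of the differences between those groups, only that of ICAM1 between 24 and 4 h at 0.2 nM was fitted, and it was called lower at 24 h. The others were not tested. TRAF1 at 0.01 nM and 16 h was below all 6 untreated libraries (log2 fold change -1.11), whereas it was above them all at 0.01 nM after 2, 4 and 8 h and at 3 nM after 16 h. Against set 1 alone the TRAF1 change at 0.01 nM and 16 h was -0.72 and was not called. BIRC3 at 0.01 nM and 16 h was below them all (-1.75), whereas it was above them at 0.01 nM after 2 and 4 h and at 3 nM after 16 h. ICAM1 at 0.2 nM and 24 h was below them all (-2.73, from 3 counts), whereas it was above them at 0.2 nM after 2 and 4 h. By ranges alone, 6.85% of 26799 genes lay below all untreated libraries at 0.01 nM and 16 h, and 10.2% at 0.2 nM and 24 h.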

How the results depend on the processing

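Of 238 member results, other size factors changed 1 call, DESeq2 changed 3, the filter 8, and the 3 limma fits on TPM between 49 and 51. On log2(TPM + 1) the median of all genes itself shifted by 0.024 to 0.179, and on log2(TPM + 0.1) by 0.069 to 0.264. No strong pairing by replicate number was seen: of 570 same-numbered pairs 0 had a correlation of deviations over 0.1. The median was 0.00125, against -0.00212 for pairs of other numbers. Of 60 libraries, 31 were most like their own number among the 3 numbers, and whether that is more than chance gives was not tested. With the replicate block, 236 member results kept their call and 2 gained one.

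Counts of members called moved by over 1.5 times as follows, and the cause was not tested. For 0.01 nM and 1 h the count of 1 became 0 on TPM in all 3 limma fits and against set 1 alone, and 2 without a filter and against set 2 alone. For 0.01 nM and 16 h 6 became 3 in all 3 limma fits. For 0.2 nM and 1 h 2 became 1 with DESeq2, the relative log expression size factors, all 3 limma fits, no filter and set 1 alone. For 3 nM and 1 h 5 became 2 against set 2 alone. In the 3 limma fits, 0.2 against 0.01 nM went to 1 in place of 2 at 2 h and to 3 in place of 5 at 4 h, 3 against 0.2 nM went to 0 in place of 3 at 2 h and to 0 in place of 7 at 4 h, and 3 nM 24 h against 4 h gave 4, 4 and (unfiltered) 3 in place of 7.

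The sign turned in 5 cases. BIRC3 at 0.2 nM and 1 h was 0.057 against set 1 alone (-0.46 against both), BIRC3 at 3 nM and 1 h was -0.20 against set 2 alone (0.32 against both), and TRAF2 between untreated set 2 and set 1 was 0.36, 0.38 and 0.36 in the limma fits (-0.02 on counts). Leaving out 1 library, the count of members ranged from 0 to 1 at 0.01 nM and 1 h, 1 to 2 for 0.2 against 0.01 nM at 2 h, 0 to 2 at 0.2 nM and 1 h, and 1 to 3 between the untreated sets. Depth limited ICAM1, which had under 30 counts per library in untreated cells. Leaving out 1 library, the genes called over all pathway lists at 3 nM stayed at 50 to 52 after 4 h and 51 to 57 after 24 h. Small lists moved more: at 3 nM the adhesion genes called were 2 to 4 after 4 h and 0 to 5 after 24 h over the other settings, the IAP antagonists and caspases 1 to 4 and 3 to 6 (5 after 4 h without 3 nM 4 h replicate 1), and the other IAP genes 2 to 4 and 3 to 4, in place of 2 and 2, 3 and 5, and 4 and 4.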

Other observations

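Genes of the same machinery also differed between the untreated sets, in both directions. Of the 65 tested genes of the pathway lists, 14 were higher and 14 lower in set 2 than in set 1 (edgeR's quasi-likelihood test, adjusted p under 0.05; 23 to 29 called when 1 library was left out), beside 28.9% of all tested genes. The examples that follow were chosen after their values were seen. TNFRSF13C, the receptor for BAFF, was higher in set 2 by 1.26 on the log2 scale (adjusted p = 5.0e-07), NAIP, an IAP that senses bacterial proteins, by 1.17 (adjusted p = 8.2e-07) and REL, an NF-kB subunit, by 1.14 (adjusted p = 8.2e-12). TNFRSF9 was higher by 0.93, MAP3K14 by 0.61 and RELB by 0.37. BCL3, a nuclear partner of NF-kB subunits, was lower by 0.66 (adjusted p = 2.0e-08), and the 3 subunits of the linear ubiquitin ligase, RNF31, RBCK1 and SHARPIN, were lower by 0.28, 0.28 and 0.27. The sets also differed in depth, and the part of depth in these values was not tested.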
